A study of Rattus norvegicus with 12 samples.

Results

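Livers of rats fed a high-fat emulsion for 6 weeks were compared with livers of rats fed it for 4 weeks. The comparison took the 3 arrays of each group, 6 of the 12 arrays in the series. It was run over all 31042 probe sets other than the array controls. The other 6 arrays, 3 of normal liver at 0h and 3 of liver at 2 weeks, were left out of the test and are used below only to place a level. All animals were Sprague-Dawley rats labelled as 12 weeks old. Both groups received the same emulsion, given to produce a nonalcoholic fatty liver, so they differ by label only in the length of feeding. The labels do not say whether this is the age at the start of feeding or at sampling, so age at sampling may differ too. RNA came from the middle of the right liver lobe and was hybridised to Affymetrix Rat Genome 230 2.0 arrays, on which a gene is read by 1 or more probe sets. The labels call the 3 samples of a group technical replicates and do not say how many rats each group stands for. The p-values therefore measure the spread between these arrays, which may be technical. The design addresses how liver transcription changes as the fatty liver model develops.

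Values are scaled signal intensities on a linear scale, and changes are differences of log2(signal + 1), 6 minus 4 weeks, with their standard errors (n = 3 arrays per group throughout). The trimmed mean signal of each of the 6 arrays lay between 500.2 and 500.3 and the median between 117.6 and 127.1. The median SD within a group was 0.31 on the log2 scale, and 0.11 for probe sets with a mean log2 signal above 8. The 30th percentile of an array, a signal of 45.5 to 54.0, is called the dim level below. Albumin (Alb), a plasma protein made by hepatocytes, gave 46357, 53062 and 33186 at 4 weeks and 44962, 36498 and 37668 at 6 weeks, and none of 20 hepatocyte markers was dim on all 6 arrays. Of 23 genes typical of organs near the liver, 8 were dim on all 6, and the summed signal, most of it the amylase Amy2a3, was 24838 to 27376 at 4 weeks and 21553 to 22926 at 6 weeks. The GAPDH 3′ to 5′ log2 ratio, which reads RNA integrity, was 0.30 to 0.36 at 4 weeks and 0.28 to 0.35 at 6 weeks. That of actin was 0.98 to 1.41 and 1.37 to 1.5.

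MHC class II molecules present peptides from outside the cell to helper T cells. Each is a pair of an alpha and a beta chain that is assembled on the invariant chain Cd74. Their genes are switched on together by the coactivator Ciita, which is itself induced by interferon gamma, and it acts through promoter elements that include a Y box. In the liver they are carried mainly by macrophages, dendritic cells, B cells and sinusoidal endothelium. Interferon gamma, made by T and NK cells, and type I interferons favour partly different target genes, the first through Irf1 and the second through Stat2 and Irf9.

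The upstream sequences of the 4 class II chain genes that rose most are shown because they share 1 motif. They are RefSeq sequences of assembly GRCr8, which was not the source of the array design, and each line runs 5′ to 3′ from 60 bases before the motif to the base before the transcription start, or, for RT1-Db1, to 60 bases after the motif. Capitals mark CTGATTGG, a form of the Y box, at bases -46 to -39 before the start of RT1-Ba, -64 to -57 of RT1-Bb, -52 to -45 of RT1-Da and -83 to -76 of RT1-Db1.
RT1-Ba, chr20:4576951-4577056, plus strand: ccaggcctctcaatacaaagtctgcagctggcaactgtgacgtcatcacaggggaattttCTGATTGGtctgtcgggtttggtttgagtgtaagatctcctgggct
RT1-Bb, chr20:4604119-4604242, minus strand: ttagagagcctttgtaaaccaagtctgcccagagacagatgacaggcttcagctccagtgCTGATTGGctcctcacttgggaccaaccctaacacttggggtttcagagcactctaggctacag
RT1-Da, chr20:4515303-4515414, plus strand: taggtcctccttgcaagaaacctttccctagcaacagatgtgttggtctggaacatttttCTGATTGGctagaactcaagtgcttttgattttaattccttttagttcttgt
RT1-Db1, chr20:4560178-4560305, minus strand: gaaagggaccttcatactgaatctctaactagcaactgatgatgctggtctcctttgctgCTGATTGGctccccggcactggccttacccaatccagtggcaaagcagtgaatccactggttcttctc
The letters were searched on both strands of the 250 bases before the start. They were found once in each of these 4 promoters and not in that of Cd74, and 3.19% of 33469 RefSeq promoters hold them. The motif was chosen after these letters were seen, and a match is a description, not a binding site.

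Across the array, 121 of 31042 probe sets (0.39%) passed the test (limma, Benjamini-Hochberg adjusted p under 0.05), 82 higher (0.264%) and 39 lower (0.126%) at 6 weeks. The arrays of the 2 groups did not overlap for any of the 121, whose smallest change was 0.88 on the log2 scale. At least 2-fold higher were 77 of them, 32 were at least 2-fold lower and 12 changed by less. A single gene symbol was assigned to 88. With each gene read by its brightest probe set, 53 of 13879 genes rose (0.382%) and 18 fell (0.13%), and the median change of all genes was 0.025. A wider fit, chosen after the data were seen, used the spread of all 12 arrays and left out probe sets below the dim level on average. It called 509 of 11310 genes higher (4.5%) and 330 lower (2.92%), and 99 of the 100 main calls that it tested. The 6-array test has only 4 residual degrees of freedom, and leaving out any 1 of the 6 arrays (each in turn) left 0 or 1 call. The wider fit called 1303 of 21729 probe sets (6.0%), and without 1 of these 6 arrays at a time it made 763 to 984 calls. Below, "rose" and "fell" refer to the 6-array test only. The shares of all genes that rose and fell, 0.382% and 0.13%, are the base for every list count in that test.

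**Figure D1:**
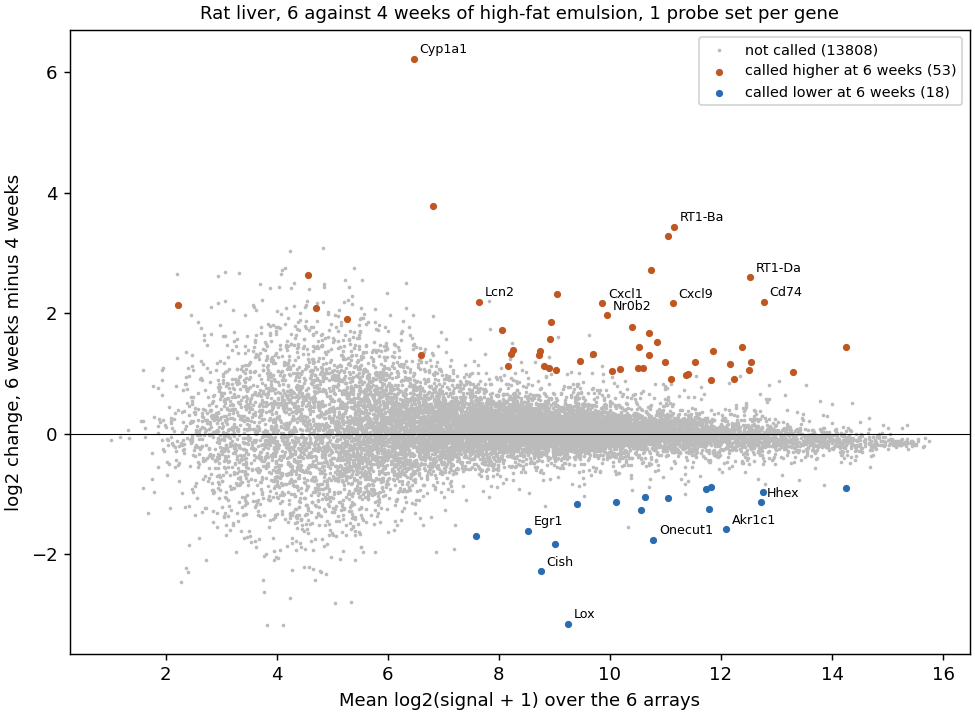
Change from 4 to 6 weeks (y axis, log2) against mean log2(signal + 1) over the 6 arrays (x axis), 1 point per gene. Orange points are the 53 genes that rose and blue points the 18 that fell. Cyp1a1 stands highest, at 6.23, and Lox lowest among the labelled genes, at -3.15.

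Class II antigen presentation gave the group of genes with the largest median change of the 44 lists examined. RT1-Ba, an alpha chain, had signals of 660, 734 and 688 at 4 weeks and 7718, 7454 and 7336 at 6 weeks. It rose 10.8-fold (3.43 ± 0.10, SE, adjusted p = 0.00271). Its partner RT1-Bb had 703, 639 and 688 against 6857, 6311 and 6505. It rose 9.69-fold (3.28 ± 0.10, adjusted p = 0.00271). In both genes the groups lay far apart and the arrays within a group lay close together. RT1-Da, the alpha chain of the other classical class II pair, gave 2379, 2515 and 2295 against 14898, 14190 and 14296 (2.59 ± 0.09, adjusted p = 0.00441). Its beta chain RT1-Db1 gave 639, 700 and 673 against 4594, 4230 and 4351 (2.71 ± 0.10, adjusted p = 0.00441). A second probe set of RT1-Db1 rose by 2.98 ± 0.26. The invariant chain Cd74 gave 3598, 3446 and 2833 against 16404, 14729 and 13792, a 4.56-fold rise (2.19 ± 0.14, adjusted p = 0.0148).

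Of 11 measured class II genes, these 5 rose and none fell (0.382% and 0.13% of all genes). The list's median change was 1.47. For 8 of the 11 every 6-week array lay above every 4-week array, as was so for 14.3% of all genes. The wider fit tested 10 of the 11 and added Ctss, the cathepsin that trims the invariant chain (0.37 ± 0.09, adjusted p = 0.222 with 6 arrays). The coactivator Ciita read 39.2, 66.1 and 52.1 at 4 weeks, 1 array below the dim level, and 168, 143 and 124 at 6 weeks. Its change of 1.47 ± 0.23 did not pass (adjusted p = 0.106, and 0.11 in the wider fit). Of the RFX factors, which bind class II promoters beside Ciita, Rfx5 changed by 0.22 ± 0.11 and Rfxap by -0.09 ± 0.17, and neither passed. Rfxank was dim on all 6 arrays. Hla-dmb, listed in the files under this symbol for a chain of the class II peptide loader, rose by 1.09 (adjusted p = 0.0289). It was in no list and was named after its values were seen.

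The 5 class II genes that rose were at their lowest mean at 4 weeks and at their highest at 6 weeks among the 4 groups. The mean signal of RT1-Ba was 2343 at 0h and 1348 at 2 weeks, then 694 at 4 weeks and 7503 at 6 weeks. Cd74 averaged 4954, 4762, 3292 and 14975. The 4-week arrays are shared by the steps on either side of them, so these means are given as levels without a further test. Not every probe set of a class II gene moved so far. The other 3 of RT1-Ba changed by 1.68 ± 0.47, 0.41 ± 0.33 and -0.03 ± 0.22, on signals averaging 361 or less at 4 weeks, and none passed. MHC genes are polymorphic and have near-identical copies, so a probe set named for 1 of them may also read another.

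**Figure D2:**
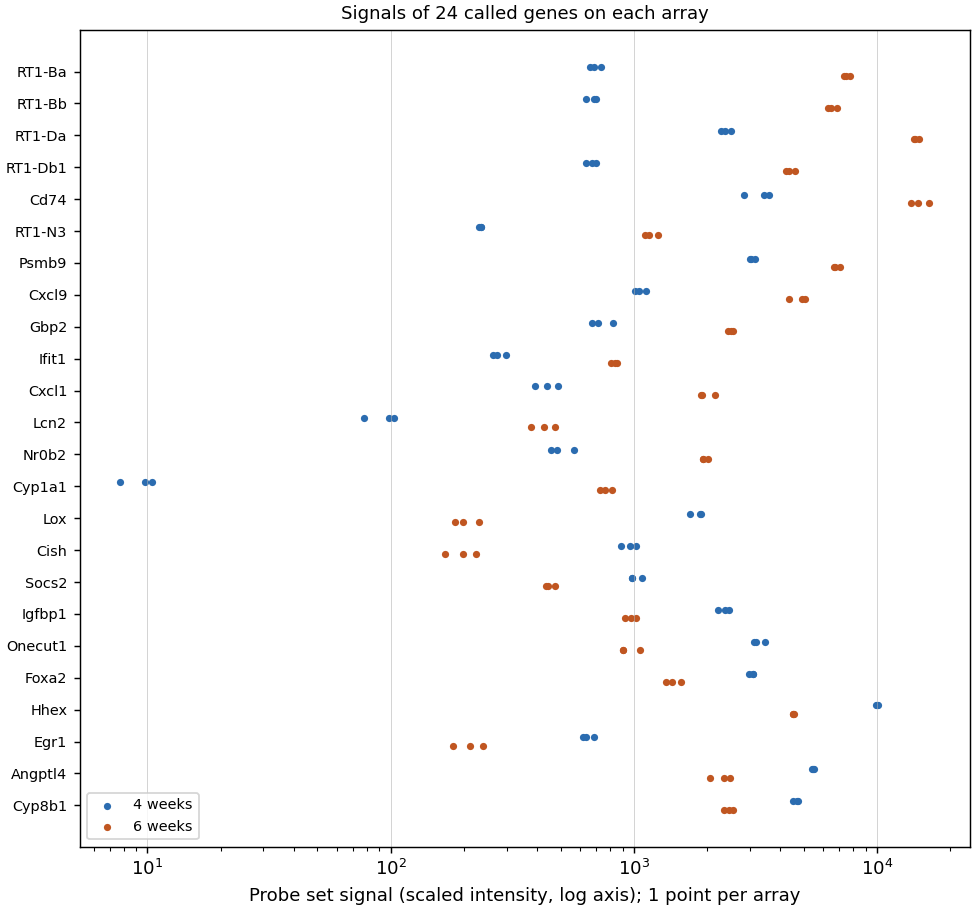
Probe set signal (x axis, log scale) of 24 genes that passed the 6-array test, with 1 point per array, blue for 4 weeks and orange for 6 weeks. The 3 points of a group lie close together, and for none of the 24 genes do the groups overlap; RT1-Ba runs from 660 to 734 at 4 weeks and from 7336 to 7718 at 6 weeks.

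MHC class I genes, which present peptides from inside the cell to cytotoxic T cells, were mixed. RT1-N3, a nonclassical class I gene, gave 232, 235 and 236 against 1264, 1108 and 1159 and rose 5-fold (2.32 ± 0.10, adjusted p = 0.00727). Its second, fainter probe set changed by 0.58 ± 0.15 and did not pass (adjusted p = 0.252). Psmb9, a catalytic subunit of the immunoproteasome that cuts class I peptides, gave 3041, 3146 and 3010 against 7032, 6732 and 6670 and rose 2.22-fold (1.15 ± 0.09, adjusted p = 0.0225). Of 17 measured genes of the list, these 2 rose and 1 fell (0.382% and 0.13% of all genes). The median change was 0.40. Arrays lay apart upward for 13 of the 17 and downward for 2 (14.3% and 11.5% of all genes). Called in the wider fit (4.5% higher and 2.92% lower over all genes) were 8 higher and 2 lower, among them the other immunoproteasome subunits Psmb8 (0.65 ± 0.10) and Psmb10 (0.75 ± 0.13). B2m, the light chain shared by all class I molecules, changed by -0.10 ± 0.11 and did not pass.

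The probe sets of other class I genes disagreed as well. RT1-A3 fell in its brightest probe set, from 4883, 4963 and 4908 to 2723, 2631 and 2654 (-0.88 ± 0.09, adjusted p = 0.0388). Its other 3 probe sets changed by 1.21 ± 0.14, 0.76 ± 0.34 and 0.18 ± 0.12, and the mean of all 4 was 0.317 (adjusted p = 0.263). RT1-CE5 rose by 3.51 ± 0.17 and 2.96 ± 0.15 in 2 probe sets (adjusted p = 0.0116 for both), while its brightest changed by 1.63 ± 0.23 (adjusted p = 0.0895). RT1-Aw2 has 10 probe sets, of which 2 rose (2.34 ± 0.16 and 1.69 ± 0.18), and the brightest changed by 0.51 ± 0.09 (adjusted p = 0.132).

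Of 21 measured genes induced by interferon gamma, 6 rose and none fell (0.382% and 0.13% of all genes), with a median change of 0.72. Cxcl9, a chemokine that draws T cells through the receptor Cxcr3, gave 1055, 1128 and 1008 at 4 weeks and 4925, 5060 and 4357 at 6 weeks. It rose 4.49-fold (2.17 ± 0.11, adjusted p = 0.0116), and its second probe set by 2.05 ± 0.10. The guanylate-binding protein Gbp2 gave 710, 820 and 676 against 2553, 2448 and 2514 (1.77 ± 0.11, adjusted p = 0.0146). The transcription factor Irf1 gave 1516, 1306 and 1233 against 2924, 3047 and 3245 (1.19 ± 0.12, adjusted p = 0.041). In each the lowest 6-week array was well above the highest 4-week array. Igtp, an interferon-induced GTPase, rose 2.27-fold (1.18 ± 0.10) and the ubiquitin-like protein Ubd 2.02-fold (1.01 ± 0.10). Over the list, arrays lay apart upward for 15 genes and downward for 1, against 14.3% and 11.5% of all genes. In the wider fit 13 of 17 were called higher and 0 lower, against 4.5% and 2.92%. The cytokine Ifng itself read 5.27, 40.4 and 17.5 against 73.7, 34.0 and 63.9, with 4 of the 6 arrays below the dim level and overlapping groups. Its receptor chains Ifngr1 (0.06 ± 0.09) and Ifngr2 (0.01 ± 0.09) did not pass.

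The antiviral genes of the type I interferon list gave values on the other side. Of 27 measured genes 1 rose and none fell in the 6-array test (0.382% and 0.13% of all genes). Their median change was -0.32. Arrays lay apart downward for 14 and upward for 6, against 11.5% and 14.3% of all genes. The wider fit called 11 of 26 lower and 3 higher (2.92% and 4.5% of all genes). Ifit1, which binds viral RNA, was the one that rose, from 264, 298 and 274 to 834, 804 and 854 (1.57 ± 0.10, adjusted p = 0.0146). Mx2, an antiviral GTPase, read 2132, 2016 and 2465 against 708, 941 and 636 (-1.55 ± 0.19). It missed the threshold with 6 arrays (adjusted p = 0.0619) and was called lower in the wider fit (adjusted p = 0.000404). Irf7, which drives type I interferon production, changed by -0.53 ± 0.11 and Oas1a, which makes the activator of an antiviral RNase, by -0.52 ± 0.10. Both were called lower in the wider fit only. Stat2 (0.09 ± 0.13) and Irf9 (0.02 ± 0.10) passed in neither fit. The difference between these lists was not tested.

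**Figure D3:**
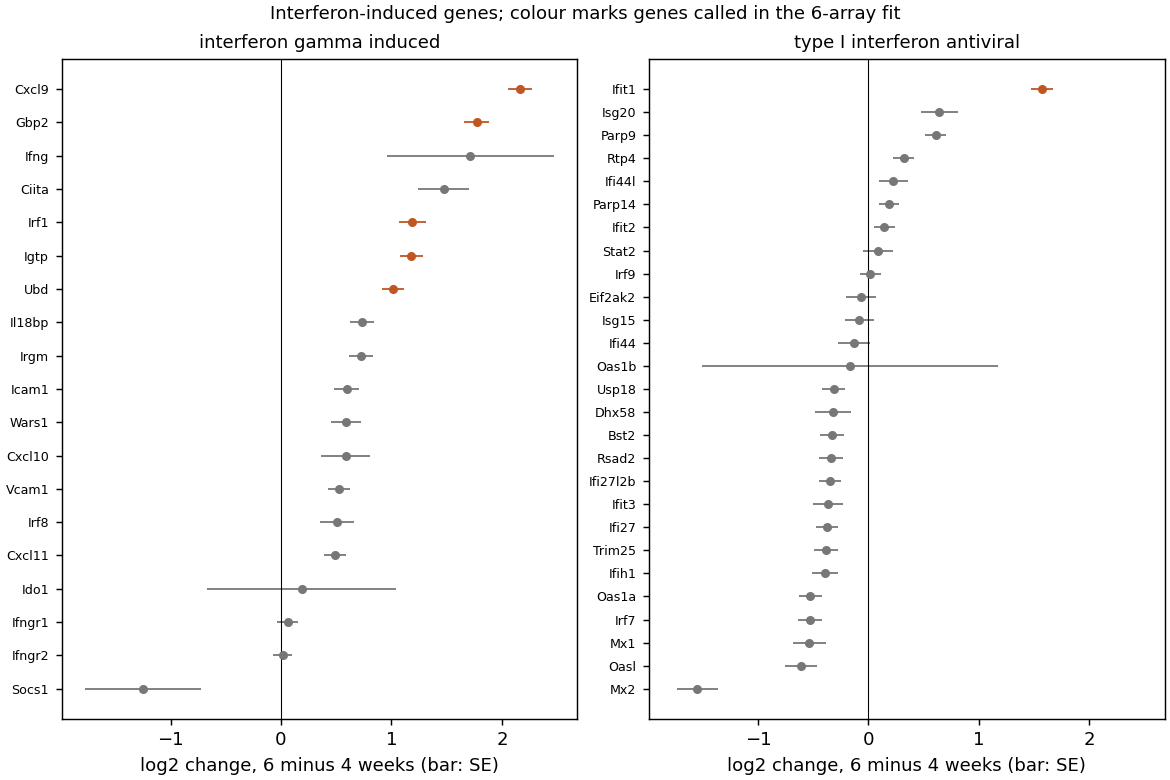
Change from 4 to 6 weeks (x axis, log2) with its standard error for 19 of 21 genes induced by interferon gamma (left) and 27 antiviral genes of the type I response (right). On the left Nos2, dim on all 6 arrays, and 1 gene not reported here are not drawn. Orange marks genes that rose in the 6-array test; most points on the left lie above 0, and 14 genes on the right have all 6-week arrays below all 4-week arrays.

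Promoters of the genes of both interferon lists that rose, and of RT1-N3 and Psmb9 from the class I list, were searched. The same 250 bases were read on both strands. The motif was GAAA followed, after 2 bases of any kind, by a further GAAA, a form of the element bound by interferon regulatory factors. Of the 9 genes looked up, 7 were in the RefSeq table and 3 of the 7 held it, against 3.41% of all promoters. The motif was chosen after promoter letters were seen. These 3 are shown, with the match in capitals and up to 40 bases on each side, as the gene's strand reads. In Gbp2 and RT1-N3 the match is on the opposite strand.
Gbp2, chr2:234005656-234005726, plus strand, bases -31 to -22: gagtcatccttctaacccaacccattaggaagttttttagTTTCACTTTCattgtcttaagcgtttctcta
Igtp, chr10:42874904-42874993, plus strand, bases -103 to -94: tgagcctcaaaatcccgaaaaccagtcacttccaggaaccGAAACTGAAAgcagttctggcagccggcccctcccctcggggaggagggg
RT1-N3, chr20:2666242-2666331, plus strand, bases -207 to -198: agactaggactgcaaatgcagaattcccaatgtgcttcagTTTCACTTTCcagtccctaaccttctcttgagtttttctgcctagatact
The Y box was looked up by gene only in the class II chain promoters above and in that of Cd74, not in these. Cxcl9, Irf1, Ubd and Psmb9 had no match, which says only that these letters are not in this window.

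Of 15 measured genes of neutrophils and the chemokines that attract them, 3 rose and none fell (0.382% and 0.13% of all genes). The list's median change was 0.85. Cxcl1, which recruits neutrophils, gave 487, 394 and 440 against 1905, 2149 and 1888 and rose 4.50-fold (2.17 ± 0.13, adjusted p = 0.0146). Lcn2, an iron-siderophore binding protein made by neutrophils and by stressed hepatocytes, gave 77.8, 98.4 and 103 against 474, 380 and 427 (2.19 ± 0.16, adjusted p = 0.021). S100a9, a subunit of the neutrophil protein calprotectin, rose 1.86-fold (0.90 ± 0.09, adjusted p = 0.0434). Its partner S100a8 changed by 1.12 ± 0.14 and did not pass (adjusted p = 0.0646). Over the list, arrays lay apart upward for 7 (14.3% of all genes) and downward for 0 (11.5%). Among the 10 tested in the wider fit 6 were called higher (4.5% of all genes), including the cytokine Il1b (0.85 ± 0.10, adjusted p = 0.0626 with 6 arrays). The summed signal of the list was 3841 to 4325 at 4 weeks and 8541 to 8967 at 6 weeks, while Camp and Cxcl6 were dim on all 6 arrays. The highest means of Cxcl1 (2220), Lcn2 (646) and S100a9 (5308) were those of the 2-week group. The 6-week mean of Lcn2, 427, also lay below its 0h mean of 523.

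T and NK cell markers had a median change of 0.71, and none passed with 6 arrays. For 19 of 26 every 6-week array lay above every 4-week array, for none the reverse, against 14.3% and 11.5% of all genes. The wider fit called 7 of 24 higher (4.5% of all genes) and 0 lower. These were Lck, Gzma, Gzmk, Gzmm, Nkg7, Cxcr3 and Xcl1, genes of T cell signalling and of cytotoxic or chemokine function. Gzmm, a granule protease, read 336, 225 and 247 against 650, 551 and 623 (1.19 ± 0.18, adjusted p = 0.104 with 6 arrays). The T cell receptor subunit Cd3e read 135, 194 and 173 against 181, 149 and 156, and its groups overlapped. Cd3d read 92.3, 87.8 and 21.8 against 249, 221 and 197 (1.95 ± 0.59), and did not pass in either fit. The summed signal of the 26 markers was 3774 to 3927 at 4 weeks and 6160 to 6787 at 6 weeks. Tcrb, a T cell receptor beta gene named after its values were seen, rose by 1.56 (adjusted p = 0.021). In bulk tissue, more cells of a type and more RNA per cell cannot be told apart.

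Macrophage genes gave smaller differences. Ccl5, a chemokine for T cells and monocytes, gave 1079, 811 and 820 against 2407, 2497 and 2394. It rose 2.71-fold (1.44 ± 0.15, adjusted p = 0.041) and was the 1 of 30 genes of activated macrophages and CC chemokines that did, while none fell (median 0.47). Arrays lay apart upward for 11 (14.3% of all genes) and downward for 1 (11.5%). The wider fit called 8 of 25 higher (4.5% of all genes), among them Lgals3 (0.82 ± 0.10), a lectin of activated macrophages, and Tlr2 (0.87 ± 0.18), a receptor for bacterial lipoproteins. Of 20 Kupffer cell and macrophage markers none passed with 6 arrays, and 7 were called higher and 1 lower in the wider fit (4.5% and 2.92% of all genes, list median 0.33). Clec4f, which marks resident Kupffer cells, changed by 0.13 ± 0.10, and the Fc receptor Fcgr3a by 0.998 ± 0.15 (adjusted p = 0.0949). The summed Kupffer signal was 49654 to 51159 at 4 weeks and 53500 to 53967 at 6 weeks. Tnf (0.40 ± 0.30) and Ccl2 (0.90 ± 0.46) did not pass in either fit, and their groups overlapped.

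Other cell type markers are given because the immune genes could move with them, and their part in the results above was not tested. The summed signal of 11 B and plasma cell markers was 15336 to 15895 at 4 weeks and 13418 to 13588 at 6 weeks. Most of that sum is Xbp1, which hepatocytes also express. Its means were 10566 and 8296, a difference about as large as that between the sums. The arrays of 9 of the 11 markers overlapped, as did those of 10301 of 13879 genes. The immunoglobulin genes IgG-2a (1.52) and Igh-1a (0.99), named after their values were seen, rose. The 17 endothelial markers summed to 15806 to 15929 and 16256 to 16862. The sums of 9 red cell and platelet genes, 64400 to 72110 and 58867 to 63882, did not overlap. Those of 12 cholangiocyte markers, 2315 to 2563 and 2499 to 2535, and of 20 hepatocyte markers, 349097 to 415787 and 329018 to 380941, did. Among 33 cell cycle genes none passed with 6 arrays, although for 14 every 6-week array lay above every 4-week array and for none the reverse (14.3% and 11.5% of all genes, list median 0.52). In the wider fit 4 of 29 were called higher (4.5% of all genes), Cdk1, Rrm2, Pcna and Mcm6, which drive mitosis entry or DNA synthesis. Their summed signal was 6086 to 6437 at 4 weeks and 8149 to 9069 at 6 weeks.

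**Figure D4:**
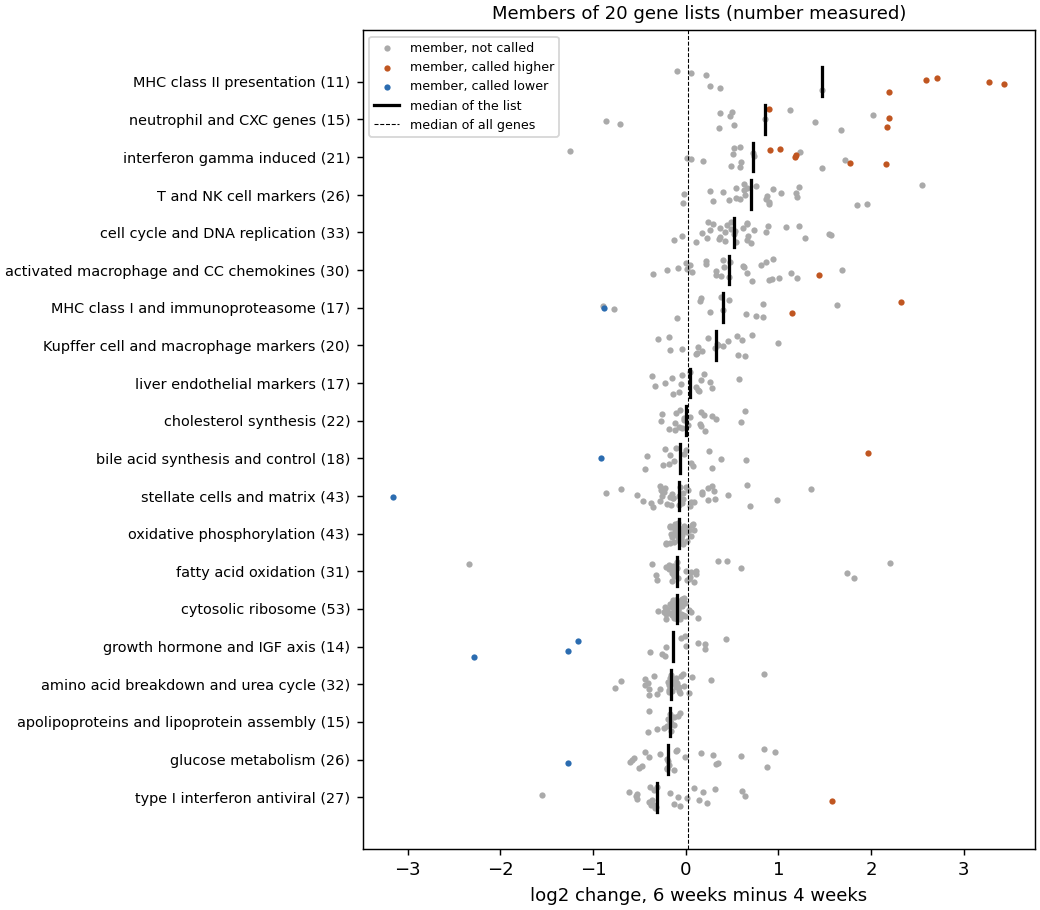
Change from 4 to 6 weeks (x axis, log2) of every measured member of 20 of the gene lists, 1 point per gene, with the median of each list as a black bar and the median of all genes, 0.025, as a dashed line. Orange and blue mark members that rose or fell in the 6-array test; the medians run from -0.32 for type I interferon genes to 1.47 for class II presentation.

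Growth hormone reaches the hepatocyte nucleus through Stat5, which induces Igf1 and the feedback inhibitors Cish and Socs2. Both inhibitors fell. Cish gave 1019, 961 and 887 at 4 weeks and 168, 198 and 225 at 6 weeks, a 4.86-fold fall (-2.28 ± 0.15, adjusted p = 0.0146). Its second probe set changed by -1.95 ± 0.22 (adjusted p = 0.0541). Socs2 gave 980, 980 and 1086 against 444, 435 and 476 (-1.17 ± 0.10, adjusted p = 0.0293). Igfbp1, an insulin-repressed protein that binds insulin-like growth factors, gave 2372, 2470 and 2213 against 920, 1022 and 977 (-1.27 ± 0.10, adjusted p = 0.0235). All 3 genes were lower on every 6-week array. Over 0h, 2, 4 and 6 weeks, Cish averaged 388, 332, 956 and 197, and Socs2 563, 233, 1015 and 452. For both inhibitors the 4-week mean was thus the highest of the 4 groups. Igfbp1 averaged 4605, 5749, 2352 and 973. Of 14 measured genes of this axis these 3 fell and none rose (0.13% and 0.382% of all genes, list median -0.13). Arrays lay apart downward for 6 and upward for 0, against 11.5% and 14.3% of all genes. Igf1 changed by -0.25 ± 0.10 and the receptor Ghr by -0.22 ± 0.09, and neither passed in either fit. The wider fit added Igfals, which carries insulin-like growth factors in plasma (-0.38 ± 0.12). Stat5b changed by -0.01 ± 0.19. Bcl6, a transcriptional repressor named after its values were seen, rose by 1.21 (adjusted p = 0.0235).

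The Cish promoter is shown because it holds 4 matches to TTCNNNGAA, the core of a STAT element, at bases -241 to -233, -230 to -222, -136 to -128 and -119 to -111. None overlaps another. The stretch is the first 200 of the 250 bases before the start, and capitals mark the matches.
Cish, chr8:116850719-116850918, plus strand: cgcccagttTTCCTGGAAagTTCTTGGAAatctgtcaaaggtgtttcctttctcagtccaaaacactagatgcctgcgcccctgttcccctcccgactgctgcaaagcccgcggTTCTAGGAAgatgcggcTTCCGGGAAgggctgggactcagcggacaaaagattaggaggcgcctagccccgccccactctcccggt
At least 1 match is held by 7.67% of all promoters. The Igfbp1 promoter has none in this window.

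Of 20 measured hepatocyte markers 2 fell, Onecut1 and Foxa2, and none rose (0.13% and 0.382% of all genes). The list's median change was -0.13. Onecut1, which regulates liver and bile duct development, gave 3190, 3458 and 3116 against 1064, 907 and 905 and fell 3.40-fold (-1.77 ± 0.12, adjusted p = 0.015). Its second probe set fell by 1.15 ± 0.12 on the log2 scale. Foxa2, a pioneer factor of liver genes, gave 3106, 3105 and 2989 against 1361, 1439 and 1564 (-1.08 ± 0.10, adjusted p = 0.0341). Hhex, a homeobox factor of liver formation that is in no list and was named as one of the 15 lowest changes, gave 10083, 10030 and 9920 against 4558, 4522 and 4537 (-1.14 ± 0.09, adjusted p = 0.0215). The arrays of each group agree within a narrow range for all of them. Over 0h, 2, 4 and 6 weeks, Foxa2 averaged 1810, 1574, 3067 and 1455, and Hhex 4442.5, 5077, 10011 and 4539. For both the 4-week mean was thus the highest of the 4 groups. Onecut1 averaged 5854, 735, 3255 and 959. Over the hepatocyte list, arrays lay apart upward for 4 and downward for 5 (14.3% and 11.5% of all genes) and overlapped for 11. In the wider fit 1 of the 20 was called higher and 3 lower (4.5% and 2.92% of all genes). The higher one was the tyrosine aminotransferase Tat (0.84 ± 0.09). The lower ones were the apolipoprotein Apoa1 (-0.40 ± 0.12), Onecut1 and Foxa2. Of other hepatocyte products in that list, albumin (Alb) changed by -0.13 ± 0.21 and transthyretin (Ttr) by -0.13 ± 0.12, and neither passed. Among 26 immediate early genes, Egr1, a zinc finger factor induced by growth signals, fell from 684, 635 and 616 to 180, 213 and 240 (-1.61 ± 0.14, adjusted p = 0.0293). Sgk1, a kinase induced by glucocorticoids and serum, rose from 1052, 1069 and 1066 to 2540, 2799 and 2531 (1.30 ± 0.10, adjusted p = 0.021).

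In bile acid control, Nr0b2 and Cyp8b1 moved in opposite directions. Nr0b2, the repressor SHP that is induced by the bile acid receptor, gave 569, 485 and 458 against 1930, 1931 and 2014 and rose 3.90-fold (1.96 ± 0.12, adjusted p = 0.0146). Cyp8b1, the sterol 12-hydroxylase that makes cholic acid, gave 4672, 4750 and 4508 against 2553, 2469 and 2353 (-0.92 ± 0.09, adjusted p = 0.0409). Cyp7a1, the rate-limiting enzyme of bile acid synthesis, gave 1358, 1386 and 1264 against 2070, 2008 and 2213. Its change of 0.65 ± 0.10 did not pass with 6 arrays (adjusted p = 0.102) and was called higher in the wider fit (adjusted p = 0.00159). The 6-week mean of Cyp7a1, 2097, lay far below the 0h mean of 9013. Of 18 measured bile acid genes 1 rose and 1 fell (0.382% and 0.13% of all genes, list median -0.06). Every 6-week array lay below every 4-week array for 8 and above for 4 (11.5% and 14.3% of all genes). The wider fit called 2 of the 18 higher and 3 lower (4.5% and 2.92% of all genes). Among 13 bile acid transporters none passed with 6 arrays, and arrays lay apart downward for 6 and upward for 1. The wider fit called 2 of the 13 lower and 0 higher. Abcc2, the export pump for conjugates into bile, changed by -1.01 ± 0.11 (adjusted p = 0.0527) and was called lower in the wider fit.

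Lipid genes were mostly uncalled in the 6-array test. Cidea, a protein of lipid droplet growth, gave 355, 373 and 360 against 817, 692 and 756 and rose 2.07-fold (1.05 ± 0.11, adjusted p = 0.0409). It was the 1 of 22 genes of triglyceride synthesis and lipid droplets to pass. Mid1ip1, which promotes the assembly of acetyl-CoA carboxylase, rose 1.85-fold (0.89 ± 0.09, adjusted p = 0.041) and was the 1 of 20 fatty acid synthesis genes to pass. Angptl4, an inhibitor of lipoprotein lipase, gave 5467, 5515 and 5391 against 2050, 2486 and 2361 and fell 2.38-fold (-1.25 ± 0.11, adjusted p = 0.0314). It was the 1 of 18 genes of fatty acid uptake to pass. The medians of these lists were -0.02, -0.03 and -0.11. The wider fit called 3 higher and 1 lower of 20 droplet and triglyceride genes, 3 and 4 of 19 fatty acid synthesis genes, and 2 and 3 of 18 uptake genes, against 4.5% higher and 2.92% lower of all genes. Among the lower were the fatty acid elongase Elovl5 (-0.83 ± 0.10) and the carbohydrate-sensing lipogenic factor Mlxipl (-0.74 ± 0.13).

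Several genes by which fatty liver is usually described did not pass and had overlapping arrays. They were the fatty acid synthase Fasn (0.11 ± 0.10), the desaturase Scd (0.06 ± 0.13), the droplet coat protein Plin2 (-0.01 ± 0.10) and the lipoprotein assembly factor Mttp (-0.08 ± 0.10). The lipogenic regulator Srebf1 changed by 0.17 ± 0.09 (adjusted p = 0.511). The fatty acid transporter Cd36 gave 4532, 4872 and 4870 against 6586, 6635 and 6507 (0.47 ± 0.09, adjusted p = 0.154 with 6 arrays and 0.00152 in the wider fit). Of 22 cholesterol synthesis genes none passed with 6 arrays, and 3 were called higher and 1 lower in the wider fit (4.5% and 2.92% of all genes, list median 0.003). Cpt1a, the carnitine transferase that gates mitochondrial oxidation, changed by -0.32 ± 0.10 (adjusted p = 0.304 and 0.0179). Of 31 fatty acid oxidation genes none passed with 6 arrays (median -0.10). Every 6-week array lay below every 4-week array for 14 and above for 4, against 11.5% and 14.3% of all genes. The wider fit called 2 of 28 higher and 2 lower (4.5% and 2.92% of all genes).

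Among 26 genes of glucose metabolism Igfbp1 alone passed with 6 arrays, downward (median -0.19). Pck1, which starts gluconeogenesis, gave 32401, 32518 and 31257 against 21890, 21606 and 22030 (-0.55 ± 0.09, adjusted p = 0.106). Its arrays did not overlap, and the wider fit called it lower, together with G6pc1 (-0.50 ± 0.11), which releases glucose. That fit called 3 of the 26 glucose genes higher and 6 lower (4.5% and 2.92% of all genes). Among the higher was Ppp1r3c (0.96 ± 0.14). Every 6-week array lay above every 4-week array for 5 of the 26 and below for 9 (14.3% and 11.5% of all genes). Of 32 genes of amino acid breakdown and the urea cycle none passed with 6 arrays. Arrays lay apart downward for 16 and upward for 1, against 11.5% and 14.3% of all genes, and the median was -0.15. The wider fit called 7 of the 32 lower and 1 higher (2.92% and 4.5% of all genes). The latter was again Tat, which starts tyrosine breakdown, at 3540, 3274 and 3313 against 6084, 5969 and 6065 (0.84 ± 0.09, adjusted p = 0.0501 with 6 arrays). The genes of the respiratory chain (43 measured, median -0.07) and of the cytosolic ribosome (53 measured, median -0.10) had no call in either fit. In the first list arrays lay apart downward for 12 and upward for 2. In the second they did so for 13 and 0 (11.5% and 14.3% of all genes).

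The largest change of all named genes was that of Cyp1a1, the cytochrome P450 induced through the aryl hydrocarbon receptor. Its signals were 10.5, 9.77 and 7.74 at 4 weeks, all below the dim level, and 729, 814 and 759 at 6 weeks. It rose at least 15.4-fold (6.23 ± 0.14 in the fit, adjusted p = 0.00185), where the bound puts the dim level in place of each dim signal. The mean was 41.6 at 0h, 233 at 2 weeks and 9.32 at 4 weeks, so the level did not run in 1 direction with feeding time. Of 9 measured genes of this receptor's list none of the others passed (median 0.10). Other enzymes of foreign compounds and steroids moved both ways. Sult2a2, a hydroxysteroid sulfotransferase, rose 3.19-fold (1.68 ± 0.10, adjusted p = 0.0146) to a 6-week mean of 2999, below its 0h mean of 17135. Inmt, an amine N-methyltransferase, rose 2.60-fold (1.38 ± 0.11, adjusted p = 0.0225). Akr1c1, an aldo-keto reductase of steroids, fell from 7348, 7552 and 7873 to 2360, 2666 and 2560 (-1.59 ± 0.10, adjusted p = 0.0146). The metal-binding protein Mt2A rose 1.97-fold (0.97 ± 0.09, adjusted p = 0.0336), also to a mean (3714) below that at 0h (16121). Sult2a2 is in the list of sex-biased liver genes. The P450 Cyp2c12 averaged 33977 at 0h and 462, 917 and 1674 at 2, 4 and 6 weeks. Whether the 0h rats differed from the fed rats in more than feeding, such as in sex or hormonal state, was not tested. The 0h means here and above therefore place a level only.

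The lowest change in the named genes was that of Lox, the enzyme that crosslinks collagen. It gave 1869, 1884 and 1706 at 4 weeks and 231, 183 and 199 at 6 weeks, an 8.90-fold fall (-3.15 ± 0.13, adjusted p = 0.00634). Its mean had been 570 at 0h and 78.0 at 2 weeks, so the 4-week group was the highest of the 4. A second, dimmer probe set changed by -2.69 ± 0.53 and did not pass (adjusted p = 0.155). Lox was the 1 of 43 genes of stellate cells and matrix that fell, and none rose (median -0.07). The collagen chain Col1a1 (-0.07 ± 0.18), the stellate cell actin Acta2 (-0.36 ± 0.22) and the protease inhibitor Timp1 (0.28 ± 0.14) had overlapping arrays and did not pass. The matrix proteoglycan Dcn read 439, 417 and 421 against 913, 765 and 866 (0.99 ± 0.11, adjusted p = 0.0527) and was called higher in the wider fit. That fit called 3 of 41 genes of the list higher and 3 lower (4.5% and 2.92% of all genes). Every 6-week array lay below every 4-week array for 10 of the 43 and above for 5 (11.5% and 14.3% of all genes). The summed signal of the 43 genes was 43104 to 44209 at 4 weeks and 39187 to 40281 at 6 weeks.

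**Figure D5:**
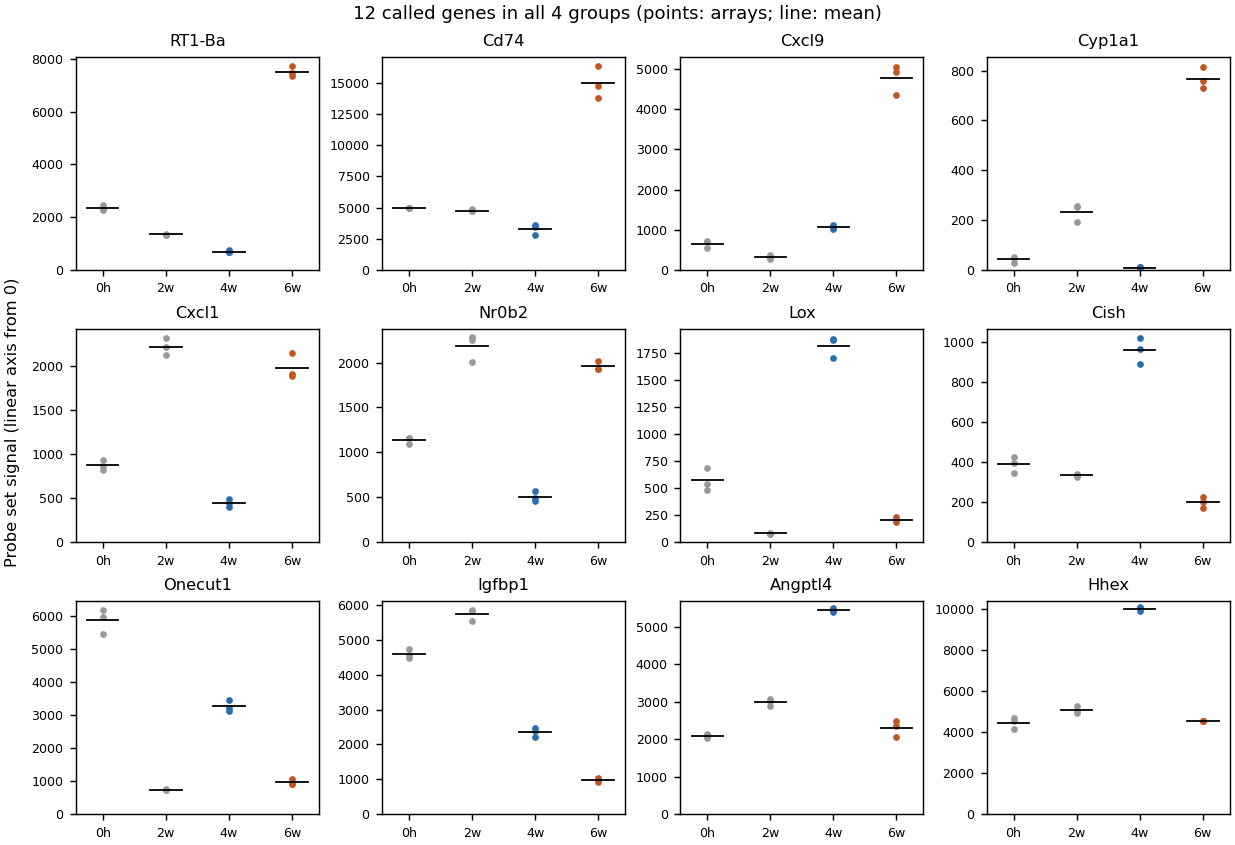
Probe set signal (y axis, linear, from 0) of 12 genes that passed the 6-array test, shown for all 4 groups (0h, 2, 4 and 6 weeks), with 1 point per array and a bar at the group mean. RT1-Ba and Cd74 are highest at 6 weeks, Lox, Cish, Angptl4 and Hhex are highest at 4 weeks, and Onecut1 is highest at 0h.

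The remaining named genes fall in no list. Spink1, a trypsin inhibitor that also behaves as an acute phase protein, rose 9.63-fold in 1 probe set, from 181, 128 and 153 to 1329, 1504 and 1614 (3.27 ± 0.17, adjusted p = 0.0116). Its brightest probe set changed by 0.93 ± 0.13 (adjusted p = 0.0796), so the size depends on the probe set. Its 2-week mean in the first was 1474, close to that at 6 weeks. Spink1 is also made in the pancreas, and the elastase Cela1, a pancreatic enzyme of the list of nearby organs, read 404, 529 and 396 against 755, 792 and 1193 (1.02 ± 0.23, adjusted p = 0.195 with 6 arrays and 0.0231 in the wider fit). Among the other pancreatic genes in that list, Prss1, Prss2, Ctrb1 and Cel were dim on all 6 arrays, and Cpb1 and Pnlip, which were not dim, had overlapping groups. The part of pancreatic RNA in the Spink1 result was not tested. The proteoglycan Spock1 rose at least 1.19-fold from dim signals (8.68, 7.80 and 9.01 to 70.5, 50.9 and 54.7, adjusted p = 0.0146). Dock11, an activator of small GTPases, fell from 1042, 927 and 977 to 238, 322 and 266 (-1.84 ± 0.15, adjusted p = 0.0235). The G protein regulator Rgs3 fell by 1.14 ± 0.12 on the log2 scale in its brightest probe set, and a fainter second one changed by 0.12 ± 0.36. The mitochondrial carrier Slc25a30 fell by 1.05 ± 0.10 and Rsrp1, an arginine and serine rich protein, by 0.98 ± 0.09. Zfp207, a zinc finger protein of the spindle, fell at least 1.54-fold in a faint probe set that was dim at 6 weeks, while its brightest changed by -0.10 ± 0.18.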

How the data were processed

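The authors deposited signal intensities on a linear scale, 1 value per probe set and array. Per the submitters' processing notes the software was GCOS 2.0. The trimmed means show that arrays had been scaled to a common level. The authors' 54 columns of ratios against 0h were not used, and a sheet repeating the signals differed by at most 0.1. Of 31099 probe sets, 57 controls were left out. Symbols from the deposited sheet were brought up to date through the RefSeq gene table of GRCr8. A single symbol was found for 19858 probe sets (15130 current, 3201 older, 35 through an accession, 1492 kept), none for 11121 and several for 23, and 40 had a symbol and an accession that differ.

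Values were turned into log2(signal + 1), which shrinks changes of dim genes. A mean per group was fitted to the 6 arrays (R 4.3.3, limma 3.58.1, lmFit and eBayes, Benjamini-Hochberg over all 31042 probe sets), after a run on simulated data. The brightest probe set over the 12 arrays, by mean log2, stood for a gene. Named genes are the 15 highest and 15 lowest called that have a characterised symbol, no overlap and a brighter group above the dim level on all 3 arrays, the 4 largest called of each of 44 lists, and benchmark genes; others are named as list members or marked as chosen after their values were seen. A few named or list genes are not reported here, though the fits and the counts include them. The members and lists were chosen with earlier results of these data known. Alternatives were the arrays in the fit, filters, pseudocounts, normalizations, trend and robust, a replicate block and leaving out each array. Intensities carry no counts, so the number of arrays limits the precision. Correlations across probe sets were 0.937 to 0.948 within the groups and 0.934 to 0.942 between them.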

Additional observations from a re-analysis of the deposited data

How the results depend on the processing

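The number of calls depended strongly on how the spread was estimated. Against 121 calls (82 higher, 39 lower), the fit of all 12 arrays gave 787 (461 and 326) and that of the 9 fed arrays 507 (310 and 197). Leaving out probe sets under the 30th or 50th percentile gave 384 and 958, pseudocounts of 16 and 32 gave 189 and 235, and limma with trend and robust gave 1300 (676 and 624). Quantile normalization gave 141 and median centring 112, and they moved the median of all probe sets from 0.015 to -0.008 and -0.019. The fit with replicate number as a block gave 0 calls in limma (2952 at an unadjusted p under 0.05, against 3718 without it). The deviations of same-numbered arrays correlated at -0.041, -0.098 and -0.035, and those of differently numbered arrays at -0.054 to 0.101. So few values cannot settle whether the numbers pair the arrays. Leaving out 1 array at a time gave 0 to 1 calls in limma, with 3022 to 3502 at an unadjusted p under 0.05. The 1 call came without the first or the third 4-week array. Chosen after the data were seen, the fit of 12 arrays with the 30th percentile filter gave 1303 calls. Without each 4-week array in turn it gave 801, 894 and 984, and without each 6-week array 847, 778 and 763. In every one of these settings, all of the 121 that were tested kept their sign. Of the values of named genes under alternatives, 1160 kept direction and side of the threshold, 329 no longer passed and 85 newly passed. A further 25, which passed neither in the main fit nor in the alternative, changed sign. The 1 that reversed was RT1-A3 as the mean of its probe sets, 0.317 (adjusted p = 0.263). Of list medians, under the alternatives that can move one, 762 moved by less than the spread between arrays and 118 by more. Dim signals carry the widest spread, so genes such as Ifng, Ppara (-2.33 ± 0.66) and Tgfb1 (1.35 ± 0.67) were hardest to read.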
